A study of Mus musculus with 18 samples.

Results

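Luteolin, a plant flavonoid, was given to mice on a high-fat diet, and messenger RNA of their epididymal fat was set against that of mice on the high-fat diet alone. The comparison used 6 of the 18 Illumina mouse bead arrays of the study, chosen by the diet and tissue in their titles, namely 3 LU and 3 HFD arrays. The LU group ate the high-fat diet with 0.005% (w/w) luteolin, and the HFD group ate the same diet, with 20% fat and 1% cholesterol, without it. A normal-diet group (ND) gave 3 further fat arrays, which entered the fit and serve as context. The animals, males of the strain C57BL/6J (spelled C56BL/6J in one label field), arrived at 4 weeks of age, were acclimated on AIN-76 chow and then ate these diets for 16 weeks, and the labels name no genetic change in any group. The LU, HFD and ND groups had 13, 13 and 10 mice, and whether each array holds RNA of its own animal is not stated in the labels. The p-values therefore describe the spread among these arrays, part of which may be technical.

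Epididymal fat is a visceral depot of the male mouse, made of adipocytes that store triglyceride and of a stroma with fibroblasts, vessels, mesothelium and immune cells. In obesity this depot is known to gain macrophages, some of which take up lipid, while genes of the adipocytes themselves lose expression. Mast cells, resident immune cells filled with granules of histamine and proteases, also live in the stroma and fire through the high-affinity IgE receptor. In whole tissue, fewer cells of a type and less RNA per cell cannot be told apart.

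The LU arrays had a lowest pairwise correlation of 0.9975, the HFD arrays 0.9952 and the ND arrays 0.992. The main axis of variation over all genes, which carried 60.8% of the variance, placed LU arrays at 3.61 to 6.49, HFD arrays at 18.26 to 26.15 and ND arrays at -33.21 to -24.56. The second axis, with 21.5% of the variance, set LU arrays apart at -17.82 to -16.6, with HFD arrays at 10.47 to 13.32 and ND arrays at 1.16 to 12.78. Between 19373 and 19852 probes per array were detected on the LU and HFD arrays, with median signals of 193.5 to 215.8. Adipocyte genes checked the tissue, with adiponectin (Adipoq) at 15.82 to 15.88 on LU arrays and 15.68 to 15.85 on HFD arrays, in log2 units. The probes for albumin (Alb), of hepatocytes, and for Cpa1, of exocrine pancreas, were not detected on any fat array. Amy2a5 and Cela1 of the pancreas list and Apoc3 of the hepatocyte list were detected on every fat array. Amy2a5 gave 14.35 to 14.51 on LU arrays and 13.99 to 14.25 on HFD arrays (difference 0.35, adjusted p = 0.012 in limma). Cela1 did not pass an adjusted p of 0.05 (-0.023, adjusted p = 0.93). Apoc3 passed narrowly (0.34, adjusted p = 0.047), a call lost under 13 of 19 alternative settings. The source of these signals was not tested. HFD 1 stood high for the sperm protamine gene Prm1 (10.23, against 8.38 and 8.35 on the other HFD arrays), and counts that change markedly without that array are given below with their value without it. All gene values below are log2 signals, all differences are LU minus HFD unless another pair is named, and ± after a difference is its standard error in limma with 3 arrays per group.

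Luteolin on the high-fat diet came with higher signals of 1672 genes and lower signals of 1587 genes among 10240 tested, at an adjusted p under 0.05 in limma. These were 16.3% and 15.5% of the genes, 31.8% in all, and the median difference of all genes was 0.02. The counts of list members given below for this comparison are to be read beside these shares. All 3 LU arrays lay above all HFD arrays in 29.1% of genes and below them in 24.9%, 54% in all. Most changes were small, and 51 genes (0.498%) rose and 79 (0.771%) fell by more than 2-fold. The largest decreases belonged mostly to mast cell proteases and macrophage receptors, and the largest rises to a mixed set that included Cfap65 and Ccdc113 of motile cilia. The sizes depended on the background correction, without which the differences of 20 of these 24 genes were smaller by over 1.5 times, all 24 with the same sign. Without LU 2 the total was 2127, and the higher genes numbered 1038, 1007 and 1053 without LU 1, LU 2 and HFD 2.

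**Figure D1:**
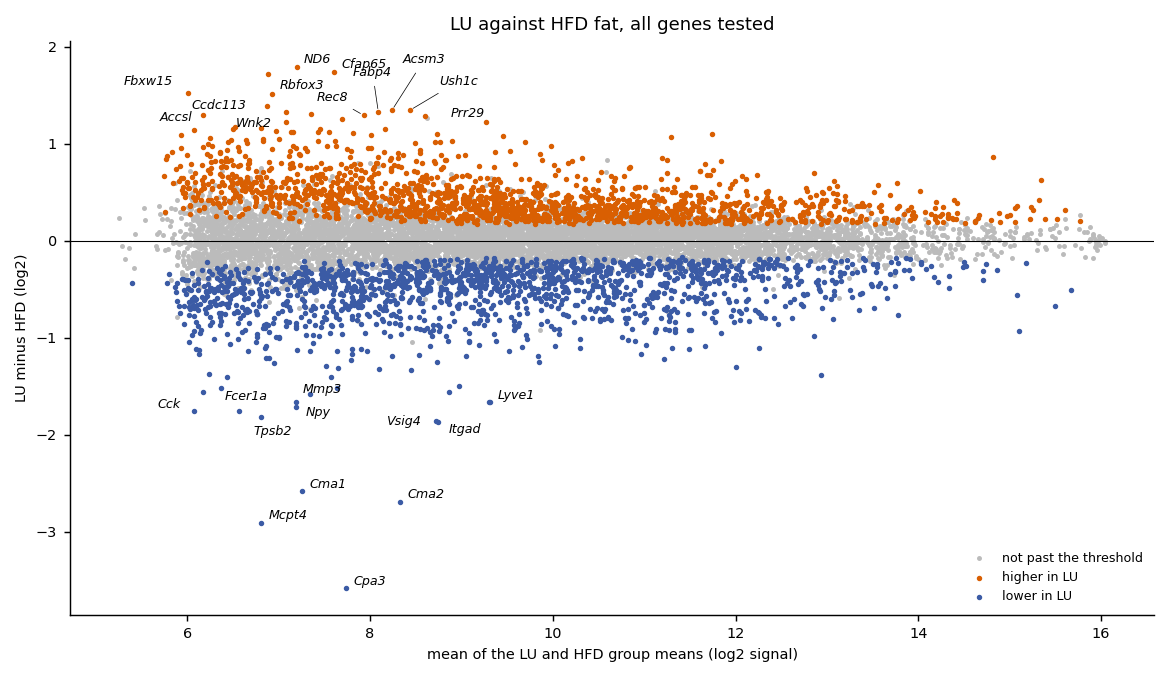
Difference LU minus HFD (log2, vertical) against the mean of both group means (log2 signal, horizontal) for the 10240 genes tested in epididymal fat, coloured by the limma call at an adjusted p of 0.05. The 24 genes with the largest named rises and decreases are labelled, and Cpa3 lies lowest at -3.58.

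Most granule proteases of mast cells and Fcer1a, the IgE-binding chain of their receptor, were near or below the detection level in LU fat, whereas the chymase Cma2 was detected on all 3 LU arrays. Of the 16 genes in the mast cell list 6 had no named probe, Ms4a2 among them. Among 10 mast cell genes with a measured probe, 8 fell, 1 rose (2 without ND 3) and 1 missed the threshold, with a median difference of -1.47. That median was -0.70 without background correction, -0.75 with the authors' log2 values and -0.11 over the members left by a stricter detection filter. The promoters of 4 of the genes that fell most are shown because these genes moved together, as RefSeq gives them on GRCm38.p6 from 250 bases before to 50 bases after the start site. They are Cpa3 (chr3:20242132-20242431, minus strand), Mcpt4 (chr14:56062261-56062560, minus strand), Cma1 (chr14:55944626-55944925, minus strand) and Fcer1a (chr1:173227180-173227479, minus strand). Capitals mark AGATAA and TGATAA, letters bound by GATA factors, and CATGTG, letters bound by E-box factors such as Mitf, on either strand, and no matches overlap.
Cpa3: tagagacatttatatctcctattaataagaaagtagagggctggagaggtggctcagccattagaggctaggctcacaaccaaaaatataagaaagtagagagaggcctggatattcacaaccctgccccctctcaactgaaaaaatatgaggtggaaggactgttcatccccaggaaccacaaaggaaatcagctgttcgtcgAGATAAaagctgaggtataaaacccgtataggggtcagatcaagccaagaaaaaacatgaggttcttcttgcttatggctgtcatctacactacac
Mcpt4: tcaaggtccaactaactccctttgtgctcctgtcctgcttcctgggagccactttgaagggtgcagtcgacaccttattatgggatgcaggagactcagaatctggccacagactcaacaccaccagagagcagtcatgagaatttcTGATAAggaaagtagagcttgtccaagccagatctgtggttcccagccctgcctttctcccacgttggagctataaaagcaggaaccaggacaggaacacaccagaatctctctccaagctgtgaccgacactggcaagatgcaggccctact
Cma1: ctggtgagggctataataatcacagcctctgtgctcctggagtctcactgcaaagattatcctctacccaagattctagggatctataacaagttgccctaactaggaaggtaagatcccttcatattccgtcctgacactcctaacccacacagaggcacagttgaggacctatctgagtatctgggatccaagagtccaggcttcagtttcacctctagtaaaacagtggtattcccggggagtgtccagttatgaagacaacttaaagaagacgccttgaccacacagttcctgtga
Fcer1a: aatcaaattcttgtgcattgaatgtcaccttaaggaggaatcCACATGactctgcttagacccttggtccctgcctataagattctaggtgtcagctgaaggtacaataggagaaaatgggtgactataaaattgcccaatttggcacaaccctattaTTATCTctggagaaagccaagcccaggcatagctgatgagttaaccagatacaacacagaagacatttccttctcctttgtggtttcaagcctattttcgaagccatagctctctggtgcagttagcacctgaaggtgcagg
Cpa3 held AGATAA at -46 from its start site and Mcpt4 held TGATAA at -103. Fcer1a held AGATAA and CATGTG, both on the opposite strand, and Cma1 held none of the 3. Only these 3 were searched, so other letters that the same factors may bind were not counted. Of 8 mast cell genes with a promoter in the table, 4 held at least 1 of these motifs, against 29.3% of all 32851 promoters of the same length, where the single shares were 11.2%, 9.05% and 14.2%. A match is a description of the letters and not a binding site.

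Cpa3, the carboxypeptidase of mast cell granules, had signals of 5.87, 6.13 and 5.83 on LU arrays, against 9.91, 9.34 and 9.32 on HFD arrays and 9.12, 9.10 and 8.48 on ND arrays. All LU values lay below every HFD and ND value, and the gene was detected on 1 of the 3 LU arrays. Cpa3 was at least 11.1-fold lower in LU fat (fitted difference -3.58 ± 0.20, adjusted p = 3.8e-05, and -1.97 without background correction), and 2 other probes of the gene gave -3.85 and -0.95. Mcpt4, a chymase of connective tissue mast cells, gave 5.51, 5.16 and 5.40 on LU arrays, against 8.53, 8.12 and 8.12 on HFD arrays and 8.08, 8.41 and 7.89 on ND arrays. Mcpt4 was not detected on any LU array and was at least 4.68-fold lower there than in HFD fat (-2.90 ± 0.16, adjusted p = 3.4e-05). Such a bound sets the brighter group's mean against, on each array of the dimmer group, the higher of the gene's signal and the detection level, which was 6.02 to 6.06 on LU arrays. For genes detected on part of a group's arrays it was added after the data were seen, and their fitted differences stand partly against background. All such bounds, here and below, hold on the background-corrected scale only. Without that correction the log2 differences were -1.25 for Mcpt4, -1.23 for Cma1, -0.74 for Tpsb2 and -0.67 for Fcer1a. These are smaller folds than the bounds given for the same genes.

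The chymases Cma1 and Cma2 and the tryptases shared the pattern. Cma1 gave 5.95, 5.87 and 6.08 on LU arrays and 8.99, 8.20 and 8.45 on HFD arrays, with 1 LU array above detection, and was at least 5.64-fold lower (fitted -2.58 ± 0.25, adjusted p = 0.00039). The difference of Cma2 was -2.69 ± 0.19 (adjusted p = 0.00015). Tpsb2, a tryptase, gave 5.79, 6.06 and 5.85 on LU arrays and 8.03, 7.57 and 7.54 on HFD arrays, with 1 LU array above detection, and was at least 3.2-fold lower (fitted -1.81 ± 0.14, adjusted p = 0.00023). In none of these genes did LU and HFD arrays overlap. The related tryptase Tpsab1 was not detected on any LU array and was at least 1.59-fold lower (adjusted p = 0.00042). Chymases and tryptases are each families of related genes, and whether a probe also binds transcripts of a relative was not tested.

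Fcer1a, the IgE-binding chain of the receptor, gave 6.22, 5.41 and 5.45 on LU arrays, with LU 1 above detection, against 7.62, 7.27 and 7.44 on HFD arrays. It was at least 2.54-fold lower (fitted -1.75 ± 0.22, adjusted p = 0.00081). Hpgds, the haematopoietic prostaglandin D2 synthase, fell by 1.18 ± 0.13 in LU fat, where it gave 8.61, 8.27 and 8.48, against 9.77, 9.81 and 9.33 in HFD fat. Its ND values of 6.79, 6.90 and 6.74 lay below both, unlike those of the proteases. Kit, the stem cell factor receptor, fell by 0.39 ± 0.08 (adjusted p = 0.0063). Hdc, which makes histamine, ran the other way at 0.67 ± 0.12 (adjusted p = 0.0037), and the transcription factor gene Gata2 did not pass (0.17 ± 0.09, adjusted p = 0.15). Which cells gave the signals of Hdc, Hpgds and Kit was not tested.

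The chymases, tryptases and Fcer1a did not differ between HFD and ND fat past the threshold, Cpa3 did by 0.63 (adjusted p = 0.030), and all of them were lower in LU than in ND fat. The median difference of the list was -1.47 for LU against HFD, 0.09 for HFD against ND and -1.28 for LU against ND, comparisons that share arrays. In HFD against ND 2 of 10 rose and 1 fell, where 21.5% and 23.9% of all genes did, 45.4% in all. In LU against ND 2 rose and 7 fell, where 17.6% and 15.6% of all genes did, 33.3% in all. The last total, 3407 genes, was 2239 without LU 1. The 8 genes that fell in LU against HFD numbered 8 whichever array was left out, and 2 with a stricter detection filter that tests only genes detected on all arrays.

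**Figure D2:**
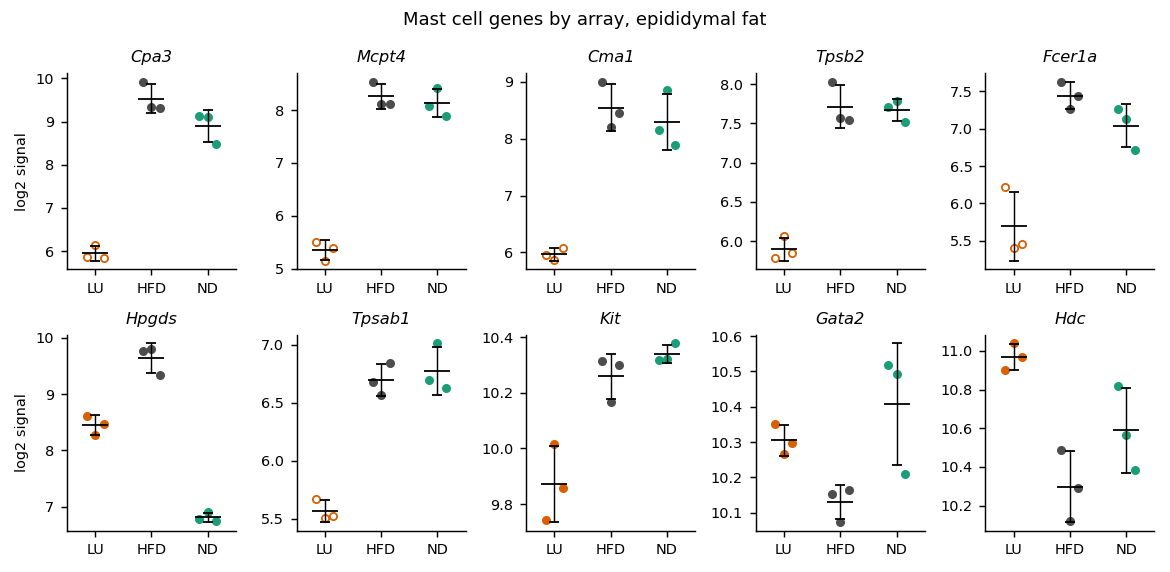
Log2 signal (vertical) of the 10 measured mast cell genes on each fat array, with LU left of HFD and ND, and the mean with its SD over 3 arrays per group. Open points belong to groups in which the gene was not detected on all 3 arrays, the vertical scales differ between panels, and Cpa3 runs from 5.83 to 6.13 on LU arrays and from 9.32 to 9.91 on HFD arrays.

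General markers of macrophages had lower signals in LU fat than in HFD fat, and 11 of them were higher and 3 lower in LU than in ND fat, where 17.6% and 15.6% of all genes were. Of the 20 with a measured probe 17 fell in LU against HFD and 0 rose, with a median difference of -0.73. C1qc, a chain of complement C1q made by macrophages, gave 11.81, 11.64 and 11.68 on LU arrays against 12.79, 12.89 and 12.75 on HFD arrays. The groups did not overlap and C1qc fell 2.14-fold (-1.10 ± 0.08, adjusted p = 0.00015). Adgre1, an adhesion receptor that serves as the standard mouse macrophage antigen, gave 11.69, 11.45 and 11.55 on LU arrays, 12.56, 12.45 and 12.19 on HFD arrays and 10.65, 10.63 and 10.67 on ND arrays. The LU arrays lay between the other groups, with -0.84 ± 0.10 against HFD (adjusted p = 0.00062) and 0.91 against ND (adjusted p = 0.00024), and the other probes of Adgre1 gave -0.80 and -1.82. Ms4a7 (-0.92 ± 0.10) and the Fc receptor gene Fcgr3 (-0.91 ± 0.11) fell as well. The median of the list was 1.05 for HFD against ND and 0.30 for LU against ND. No named probe was available for Cd68, and the probe of Cybb was not detected.

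Receptors and products of resident macrophages also fell. In LU against ND fat 12 of them were lower and 2 higher (Arg1 and Chil3), where 15.6% and 17.6% of all genes were. Of the 16 with a measured probe 12 fell in LU against HFD and 0 rose, with a median of -0.65 for LU against HFD, -0.11 for HFD against ND and -0.51 for LU against ND. Lyve1, a hyaluronan receptor of lymphatic endothelium and of perivascular macrophages, gave 8.64, 8.33 and 8.46 on LU arrays, 10.24, 10.04 and 10.16 on HFD arrays and 10.53, 10.64 and 10.56 on ND arrays. It fell 3.17-fold against HFD (-1.66 ± 0.09, adjusted p = 3.4e-05) and lay 2.10 below ND (adjusted p = 7.6e-06). Folr2, a folate receptor of resident macrophages, gave 11.02, 10.83 and 10.97 on LU arrays against 12.14, 12.08 and 11.92 on HFD arrays (-1.11 ± 0.11, adjusted p = 0.00043). F13a1, a coagulation factor subunit of macrophages, fell by 0.80 ± 0.06 and Mrc1, the mannose receptor, by 0.80 ± 0.07, and both were below ND too. Chil3, a chitinase-like protein of alternatively activated macrophages, fell by 1.12 ± 0.21 (adjusted p = 0.0042) and was not detected on any ND array.

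Vsig4 and Itgad were among the 12 largest decreases. Vsig4, a complement receptor of tissue macrophages, gave 7.92, 7.71 and 7.76 on LU arrays, against 9.82, 9.65 and 9.50 on HFD arrays and 8.46, 8.39 and 7.87 on ND arrays. The LU arrays lay 3.63-fold below HFD (-1.86 ± 0.15, adjusted p = 0.00024) and -0.45 from ND (adjusted p = 0.047). Itgad, the integrin alpha D of foam cells and macrophages, gave 7.76, 7.79 and 7.88 on LU arrays and 10.06, 9.67 and 9.31 on HFD arrays (-1.87 ± 0.17, adjusted p = 0.00038). It was not detected on any ND array, so the LU level lay between the other groups.

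Genes of lipid-associated macrophages, the Trem2-bearing cells that gather around lipid-laden adipocytes, fell in LU against HFD fat. In LU against ND fat 14 of them were higher and 0 lower, where 17.6% and 15.6% of all genes were. Of the 17 with a measured probe 11 fell in LU against HFD and 0 rose, with a median of -0.40 for LU against HFD, 1.38 for HFD against ND and 0.78 for LU against ND. The 11 numbered 7, 7, 6 and 6 without LU 2, LU 3, HFD 1 and HFD 2. Trem2, a lipid-sensing receptor, gave 11.88, 11.55 and 11.77 on LU arrays, 12.80, 12.65 and 12.24 on HFD arrays and 8.66, 8.39 and 7.97 on ND arrays. It fell 1.78-fold in LU fat (-0.83 ± 0.19, adjusted p = 0.0096) and was still 3.39 above ND (adjusted p = 8.6e-06). Dcstamp, needed for fusion of macrophages into giant cells, fell 1.99-fold (-0.99 ± 0.09, adjusted p = 0.00038), and the cathepsins Ctsk and Ctsl both fell by 0.85 ± 0.12. Itgax, which encodes CD11c, did not pass (-0.40 ± 0.14, adjusted p = 0.061). Of 25 lysosome genes 1 rose and 9 fell, with a median of -0.09, and the single rise was lost without any LU or HFD array.

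**Figure D3:**
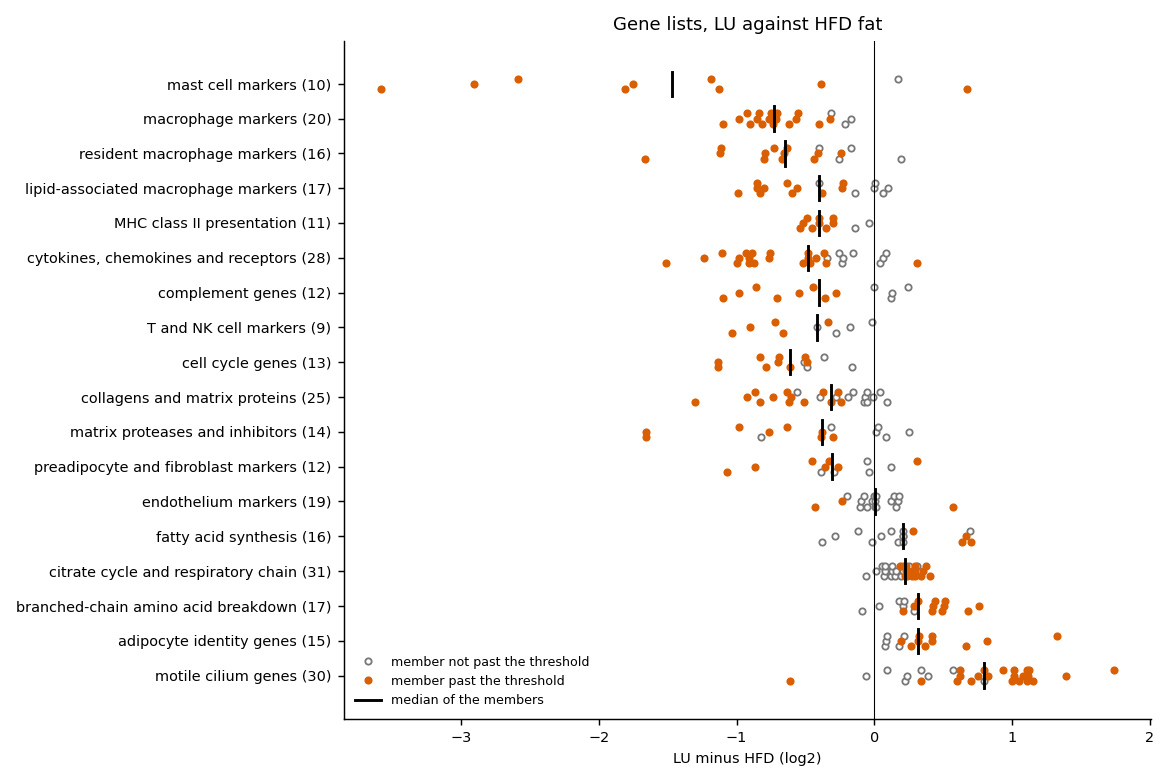
Differences LU minus HFD (log2, horizontal) of the measured members of 18 gene lists in epididymal fat, with the number measured in brackets, filled points past the limma threshold and a bar at the median. The bar lies at -1.47 for mast cell markers and at 0.32 for adipocyte identity genes.

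Chemokines that draw monocytes were lower in LU fat. Of 28 cytokine, chemokine and receptor genes, 1 rose, 19 fell and 8 did not pass, with a median of -0.48 for LU against HFD, 0.76 for HFD against ND and 0.08 for LU against ND. The single rise was lost without LU 1, LU 2, HFD 1 or HFD 3. Ccl2, the monocyte chemoattractant MCP-1, gave 7.12, 7.18 and 7.23 on LU arrays, 8.49, 8.39 and 8.35 on HFD arrays and 6.08, 6.34 and 6.44 on ND arrays. LU and HFD arrays did not overlap, and Ccl2 fell 2.35-fold (-1.23 ± 0.09, adjusted p = 0.00023). Its mouse relative Ccl12 gave 6.97, 6.97 and 6.69 on LU arrays and 8.32, 8.32 and 8.53 on HFD arrays (-1.51 ± 0.14, adjusted p = 0.00038), and its ND values of 8.07, 8.07 and 7.58 were also above LU. Ccl8, a related chemokine, fell too (-1.11 ± 0.20). Il1b, the interleukin 1 beta gene, did not pass (0.06 ± 0.16, adjusted p = 0.78). Its signal was near the floor, with detection on 2 of 3 HFD arrays and an HFD mean of 6.12 beside detection levels of 6 to 6.07. A change in Il1b could therefore have been missed.

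Innate sensors, antigen presentation and lymphocyte genes followed. Of 21 Toll-like receptor and NF-kB genes, 2 rose, 11 fell and 8 did not pass, with a median of -0.24, and the 2 rises numbered 0 without LU 1, LU 2, HFD 1 or HFD 2 and 1 without LU 3, HFD 3 or ND 3. Tlr8, an endosomal RNA sensor, gave 7.69, 7.55 and 7.67 on LU arrays and 8.97, 8.83 and 8.68 on HFD arrays (-1.19 ± 0.17, adjusted p = 0.0014). The related sensors Tlr13 (-1.10 ± 0.19) and Tlr7 (-0.87 ± 0.10) and the lipopolysaccharide co-receptor Cd14 (-0.76 ± 0.10) fell, as did Tlr2 (-0.60 ± 0.07) and Tlr4 (-0.57 ± 0.08). Of 11 genes of MHC class II presentation 9 fell and none rose (median -0.40), with the invariant chain Cd74 at 14.15, 13.97 and 14.16 on LU arrays against 14.63, 14.63 and 14.47 on HFD arrays. Of 12 complement genes 8 fell, the 3 C1q chains among them, and none rose (median -0.40, and 1 rose without HFD 3 or ND 2). The anaphylatoxin receptor gene C5ar1 was not detected on any LU array and was at least 1.28-fold lower (adjusted p = 0.00043). Of 9 measured T and NK cell markers 5 fell and none rose (median -0.42, -0.23 without background correction and -0.69 without HFD 1, and 3 fell without LU 2), led by Il7r, the interleukin 7 receptor (-1.04 ± 0.15, adjusted p = 0.0016, other probes -0.40 and -1.34). Of the 19 genes in that list 8 had no named probe, Cd8a and Lck among them, and Cd4 was not detected on any fat array. Interferon-stimulated genes were 0 of 13 higher and 0 lower, with a median of -0.08 and with Isg15 at -0.26 ± 0.10 (adjusted p = 0.077). Without HFD 3, 2 of them were lower, and without ND 2 1 was higher and 1 lower, as also without ND 3.

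Cell division and matrix genes were lower in LU than in HFD fat. Of 13 cell cycle genes 9 fell and none rose, with a median of -0.61 for LU against HFD (-0.39 without background correction), 1.24 for HFD against ND and 0.56 for LU against ND. Top2a, a DNA topoisomerase of dividing cells, gave 6.86, 6.63 and 6.84 on LU arrays and 7.97, 7.93 and 7.83 on HFD arrays (-1.13 ± 0.14, adjusted p = 0.00068). Tk1, a thymidine kinase of S phase, fell 2.20-fold (-1.14 ± 0.12, adjusted p = 0.00043), while its other probe gave -0.44 (adjusted p = 0.055). Of 25 collagens and matrix proteins 13 fell and none rose, with a median of -0.31, 0.47 for HFD against ND and 0.23 for LU against ND. Lum, the proteoglycan lumican of collagen fibrils, gave 11.30, 11.35 and 11.41 on LU arrays against 12.75, 12.70 and 12.51 on HFD arrays and fell 2.46-fold (-1.30 ± 0.16, adjusted p = 0.00081). Its ND values of 11.65, 11.72 and 11.02 overlapped those of LU fat. Fibronectin, Fn1 (-0.92 ± 0.12), and the collagen genes Col14a1 (-0.87 ± 0.10), Col3a1 (-0.83 ± 0.11) and Col1a1 (-0.74 ± 0.12) fell. The other probes of Fn1 and Col14a1 gave smaller falls of -0.50 and -0.51.

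Of 14 matrix proteases and inhibitors 8 fell and none rose, with a median of -0.38, and 1 rose without HFD 3. Timp1, an inhibitor of metalloproteinases, gave 8.37, 8.60 and 8.45 on LU arrays, 10.50, 10.16 and 9.73 on HFD arrays and 7.98, 7.50 and 7.52 on ND arrays. The LU arrays lay 3.16-fold below HFD (-1.66 ± 0.19, adjusted p = 0.00056) and 0.81 above ND (adjusted p = 0.011). Mmp3, stromelysin 1, gave 6.79, 6.31 and 5.97 on LU arrays, 2 of them above detection, against 8.16, 7.96 and 7.93 on HFD arrays, and was at least 3.13-fold lower (fitted -1.66 ± 0.17, adjusted p = 0.00043). Of 12 preadipocyte and fibroblast markers 1 rose and 6 fell (median -0.31), the rise being lost without LU 3 or HFD 2, with the microfibril protein Mfap5 at -1.07 ± 0.12. Of 11 mesothelium markers 2 rose and 5 fell (median -0.35, and -0.13 without background correction). Among them the uroplakin genes Upk1b (-1.08 ± 0.14) and Upk3b (-0.96 ± 0.15) fell, while the epithelial keratins Krt18 (0.98 ± 0.21) and Krt8 (0.60 ± 0.18) rose. Krt8 lost its call without LU 1, LU 2, LU 3, HFD 2 or HFD 3, when 1 marker remained higher. Endothelium markers had 1 higher and 2 lower of 19, below the 16.3% and 15.5% of all genes. Their median was 0.01 (negative with cyclic loess and without LU 3 or HFD 1). The 2 lower were 1 without LU 1, LU 2, LU 3, HFD 1, HFD 2 or ND 1, and the 1 higher was 2 without HFD 3.

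**Figure D4:**
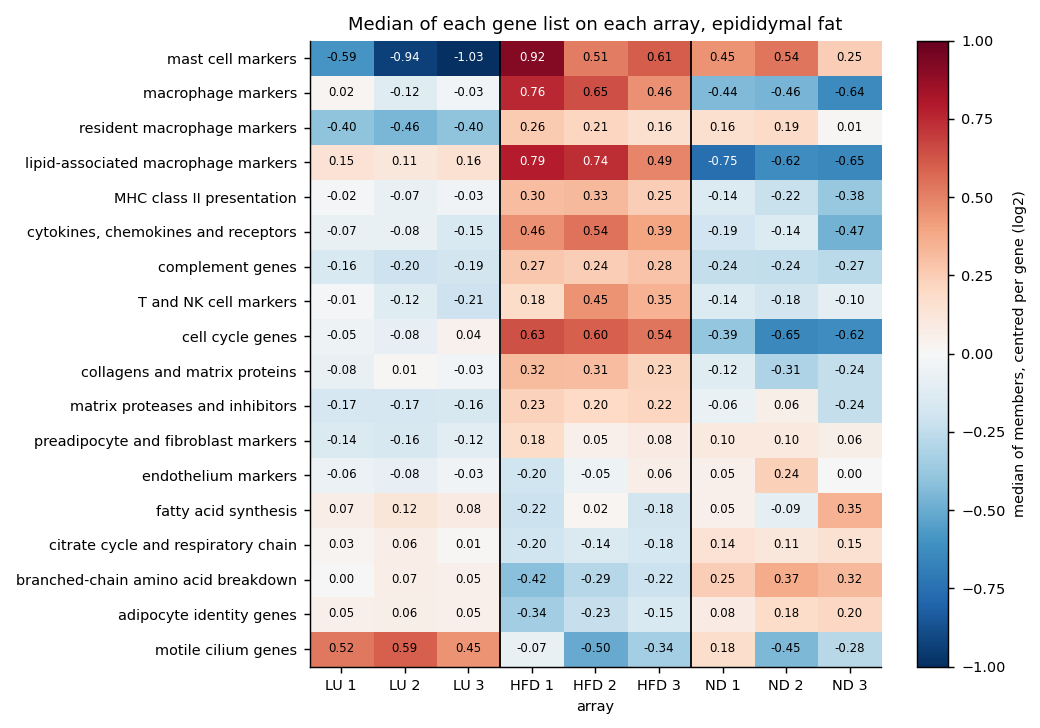
Median over the members of each of 18 gene lists (rows) on each fat array (columns, LU left of HFD and ND), after each gene was centred on its mean over the 9 arrays, in log2 units. Mast cell markers run from -1.03 to -0.59 on LU arrays and from 0.51 to 0.92 on HFD arrays, and adipocyte identity genes from 0.05 to 0.06 on LU arrays and from -0.34 to -0.15 on HFD arrays.

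Genes of the adipocytes themselves were higher in LU than in HFD fat. Of 15 adipocyte identity genes 10 rose and 0 fell, with a median of 0.32 for LU against HFD, -0.42 for HFD against ND and -0.10 for LU against ND. The 10 numbered 6 without LU 2 and 6 without HFD 1. Fabp4, the fatty acid binding protein of adipocytes, gave 8.73, 8.85 and 8.67 on LU arrays, against 7.07, 7.46 and 7.76 on HFD arrays and 7.88, 8.06 and 7.82 on ND arrays. The LU arrays lay above both other groups, 2.51-fold above HFD (1.33 ± 0.15, adjusted p = 0.00056), as read by the only named probe of the gene. That probe was dim beside the one for Adipoq, at 15.82 to 15.88 on LU arrays, and how well it reads the main transcript was not tested. Pck1, which makes glycerol for triglyceride in fat, gave 10.68, 10.53 and 10.65 on LU arrays against 9.57, 9.67 and 10.16 on HFD arrays (0.82 ± 0.13, adjusted p = 0.0023). Thrsp, a thyroid hormone responsive regulator of lipid synthesis, rose by 0.66 ± 0.13 and the carbonic anhydrase Car3 by 0.42 ± 0.10. Beside these rises, the summed signal of the 20 macrophage markers was 130730 to 137732 on LU arrays, 171309 to 185640 on HFD arrays and 91240 to 105447 on ND arrays, on the linear scale, and its part in the adipocyte values was not tested.

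The master regulator Pparg did not pass (0.18 ± 0.13, adjusted p = 0.30), and its other probes gave -0.0048 and -0.44. Adipoq did not pass either (0.09 ± 0.06, adjusted p = 0.29). Lep, which encodes leptin, gave 15.87, 15.94 and 15.92 on LU arrays against 16.01, 16.00 and 16.00 on HFD arrays (-0.09 ± 0.10, adjusted p = 0.51). These levels lay close to 16.06, the highest of any gene in fat, so little room was left above them. Of 12 adipokine genes 2 rose and 1 fell (median -0.01), near or below the 16.3% and 15.5% of all genes. Rbp4, the retinol carrier, gave 11.61, 11.57 and 11.69 on LU arrays and 10.62, 10.77 and 10.93 on HFD arrays (0.85 ± 0.09, adjusted p = 0.00043). Angiotensinogen, Agt, was higher by 0.55 ± 0.10. The fall, in Grem1, was lost without LU 1, LU 2 or LU 3, and 2 were lower without HFD 1, HFD 3 or ND 2. The sign of that list's median turned with median scaling and without LU 2, LU 3 or HFD 3. Of 13 genes of fat expansion 1 rose and 3 fell, where 16.3% and 15.5% of all genes did (median -0.03, positive without HFD 3, and 2 rises without ND 1 or ND 2). Nnat, neuronatin, gave 12.33, 12.28 and 12.26 on LU arrays and 11.10, 11.14 and 11.33 on HFD arrays (1.10 ± 0.10, adjusted p = 0.00038), and its other probes gave smaller rises of 0.69 and 0.44.

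Part of the mitochondrial genes measured were higher in LU than in HFD fat, by small amounts. Of 17 genes of branched-chain amino acid breakdown 11 rose and none fell, with a median of 0.32, -0.67 for HFD against ND and -0.25 for LU against ND, and 7 rose without LU 2. Bckdhb, of the dehydrogenase that commits these amino acids to breakdown, gave 12.16, 11.95 and 12.08 on LU arrays, 11.25, 11.45 and 11.46 on HFD arrays and 12.08, 12.07 and 11.96 on ND arrays. LU and ND arrays overlapped, and both lay above HFD (0.68 ± 0.08 for LU against HFD, adjusted p = 0.00069). Mccc1, of leucine breakdown, rose by 0.76 ± 0.12, Acadsb by 0.52 ± 0.08 and Ivd, isovaleryl-CoA dehydrogenase, by 0.51 ± 0.07. Of 31 citrate cycle and respiratory chain genes 16 rose and none fell, with a median of 0.22, and 10, 9, 9 and 10 rose without LU 1, LU 2, HFD 1 and HFD 3. Sdhc of succinate dehydrogenase gave 12.86, 12.92 and 13.01 on LU arrays and 12.55, 12.50 and 12.53 on HFD arrays (0.40 ± 0.06, adjusted p = 0.0021). Ndufv1 of complex I rose by 0.37 ± 0.06 and Cox6c of cytochrome oxidase by 0.35 ± 0.06.

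Of 21 fatty acid oxidation genes 6 rose and none fell (median 0.20). Ppargc1a, a coactivator of mitochondrial genes, gave 8.07, 8.23 and 8.22 on LU arrays and 7.62, 7.25 and 7.34 on HFD arrays (0.77 ± 0.12, adjusted p = 0.0018). Acads, a short-chain acyl-CoA dehydrogenase, rose by 0.56 ± 0.09, with its other probe at 0.29 (adjusted p = 0.099). Of 8 brown and beige adipocyte genes 4 rose and none fell (median 0.35), and 2 rose without LU 1, LU 2, LU 3, HFD 1 or HFD 2. Cox8b, a cytochrome oxidase subunit of brown fat, rose by 0.72 ± 0.10 (adjusted p = 0.001), and Ucp1 was not among the genes tested.

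Lists of lipid-handling genes differed, beside the 16.3% of all genes that rose and the 15.5% that fell. Of 18 genes of triglyceride synthesis and the lipid droplet 7 rose and 1 fell (median 0.23). Without LU 1, LU 2, LU 3, HFD 1 and HFD 2 the rises numbered 3, 2, 3, 3 and 4, and the fall was lost without LU 1, LU 3, HFD 1 or HFD 2. Dgat1, which completes triglyceride, gave 10.78, 10.92 and 11.07 on LU arrays and 10.33, 10.43 and 10.34 on HFD arrays (0.56 ± 0.09, adjusted p = 0.0027). The droplet proteins Cidec (0.19 ± 0.06, adjusted p = 0.046) and Plin1 (0.26 ± 0.08, adjusted p = 0.026) passed narrowly, and both lost the call with a replicate block and without LU 1, LU 2, LU 3 or HFD 1, Cidec also without HFD 2 or HFD 3. Of 11 lipolysis genes 4 rose and 1 fell (median 0.22), and 2 rose without LU 2, LU 3, HFD 1, HFD 2 or HFD 3. Pnpla2, adipose triglyceride lipase, gave 15.78, 15.74 and 15.77 on LU arrays and 15.44, 15.40 and 15.49 on HFD arrays (0.32 ± 0.06, adjusted p = 0.0043). Lipe, hormone-sensitive lipase, rose by 0.42 ± 0.10 and lost its call without HFD 2, and the lysosomal lipase Lipa fell by 0.59 ± 0.09.

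Of 16 genes of fatty acid uptake and activation 3 rose and 2 fell, near the 16.3% and 15.5% of all genes. Their median of 0.01 turned negative without LU 1, LU 2 or HFD 1, and 1 fell without LU 2 or HFD 2. Cd36, a fatty acid translocase, gave 9.18, 9.22 and 9.31 on LU arrays, 8.21, 8.53 and 8.47 on HFD arrays and 8.46, 8.22 and 8.24 on ND arrays. It rose 1.78-fold (0.83 ± 0.10, adjusted p = 0.00066) to a level above ND, on a probe far dimmer than that of Adipoq. Lpl, lipoprotein lipase, was at 0.00 ± 0.05 with its probe at the top of the scale, and its other probe gave 0.46 (adjusted p = 0.071). Of 16 fatty acid synthesis genes 4 rose and none fell (median 0.21), and 2 rose without LU 1, HFD 1 or HFD 2. Mlxipl, the carbohydrate response factor ChREBP, gave 10.88, 10.87 and 10.89 on LU arrays and 10.24, 10.07 and 10.22 on HFD arrays (0.70 ± 0.09, adjusted p = 0.00095). Fasn, fatty acid synthase, did not pass (0.69 ± 0.30, adjusted p = 0.11), and Scd1, whose probe lay near the top of the scale, was at 0.05 ± 0.06. Of 16 cholesterol genes none rose and 2 fell (median -0.16), below or near the 16.3% and 15.5% of all genes. In this list 1 fell without LU 1, LU 2, LU 3 or HFD 2, 4 fell without ND 2, and 1 rose without HFD 3 or ND 1. Msmo1, a sterol oxidase, fell by 0.42 ± 0.08.

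Of 17 insulin signalling and glucose uptake genes 3 rose and 1 fell, near or below the 16.3% and 15.5% of all genes, and none rose without LU 2 or without HFD 2. Their median of 0.12 was 0.06 to 0.08 without LU 1, LU 3 or HFD 3 and 0.02 with the stricter detection filter. Insr, the insulin receptor, gave 12.94, 12.88 and 12.84 on LU arrays and 12.61, 12.52 and 12.64 on HFD arrays, with ND arrays above both at 13.04, 13.33 and 13.15 (0.30 ± 0.08, adjusted p = 0.021, lost without LU 1, LU 2 or HFD 2). Slc2a4, the insulin-responsive glucose transporter GLUT4, rose by 0.37 ± 0.11 (adjusted p = 0.03) and lost its call without LU 2, HFD 1 or HFD 2. Slc2a1, the basal transporter GLUT1, fell by 0.28 ± 0.06 (adjusted p = 0.0074). The receptor substrates Irs1 (0.24 ± 0.11, adjusted p = 0.13) and Irs2 (0.26 ± 0.13, adjusted p = 0.15) did not pass.

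Stress and clock genes changed in both directions. Of 19 Nrf2 and antioxidant genes 8 rose and 3 fell (median 0.11). Without LU 1, LU 2, LU 3, HFD 1, HFD 2 and HFD 3 the rises numbered 4, 4, 5, 5, 5 and 5, and the falls numbered 1, 0, 0 and 1 without LU 1, LU 2, HFD 1 and HFD 2. Gsta4, a glutathione transferase for lipid aldehydes, gave 8.65, 8.99 and 8.76 on LU arrays, 7.96, 7.79 and 7.98 on HFD arrays and 10.03, 10.03 and 9.90 on ND arrays (0.89 ± 0.10, adjusted p = 0.00044). The LU arrays lay above HFD and below ND. Haem oxygenase 1, Hmox1, did not pass (-0.42 ± 0.18, adjusted p = 0.11). Of 19 endoplasmic reticulum stress genes 1 rose and 6 fell (median -0.12), the rise being lost without LU 2, LU 3 or HFD 2. Among them the chaperone gene Calr (-0.83 ± 0.11) and the stress factor Atf3 (-0.80 ± 0.14) fell. Of 18 immediate early and heat shock genes 6 fell and none rose (median -0.23, and 1 rose without HFD 3 or ND 1), with Egr2 (-0.83 ± 0.15) and Fos (-0.70 ± 0.13) among the falls.

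Of 15 circadian clock genes 7 rose and 2 fell (median 0.18, and 1 fell without LU 3). Nr1d1, the clock repressor REV-ERB alpha, gave 8.52, 8.65 and 8.64 on LU arrays, 7.55, 7.76 and 7.75 on HFD arrays and 8.67, 8.32 and 8.52 on ND arrays (0.92 ± 0.10, adjusted p = 0.00043). LU and ND arrays overlapped, and both were above HFD. Per3 (0.80 ± 0.15, other probe 0.25) and Dbp (0.69 ± 0.13) rose, and the hours at which tissues were taken are not given in the sources used here. Of 14 hypoxia and angiogenesis genes 2 rose and 5 fell (median -0.13), with the carbonic anhydrase Car9 at -0.82 ± 0.08, the hypoxia factor Hif1a at -0.53 ± 0.10 and the vessel growth factor Vegfa at 0.70 ± 0.16.

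The largest rises included a gene of the mitochondrial genome and, from the ciliary axoneme (the microtubule core of beating cilia), the genes Cfap65 and Ccdc113. ND6, a complex I subunit encoded by the mitochondrial chromosome and not named for the diet, gave 8.28, 7.88 and 8.12 on LU arrays, 6.12, 6.20 and 6.58 on HFD arrays and 6.93, 7.12 and 7.39 on ND arrays. It rose 3.47-fold in LU fat (1.79 ± 0.16, adjusted p = 0.00032) and lay above ND too. Cfap65, a cilia and flagella protein, gave 8.50, 8.45 and 8.49 on LU arrays, 7.11, 6.40 and 6.70 on HFD arrays and 7.51, 7.07 and 6.91 on ND arrays. It rose 3.35-fold (1.74 ± 0.19, adjusted p = 0.00043). Ccdc113, of the ciliary base and axoneme, was detected on 2 of 3 HFD arrays and was at least 2.35-fold higher (fitted 1.39 ± 0.34, adjusted p = 0.014), a call lost without LU 2. Rec8, a meiotic cohesin, rose by 1.29 ± 0.26 and Ush1c, the scaffold harmonin, by 1.35 ± 0.25. In Cfap65, Ccdc113, Rec8 and Ush1c, HFD 1 was the highest HFD array and ND 1 the highest ND array.

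A list of 44 motile cilium genes was therefore added after these rises were seen, and it includes the genes that called for it. Of the 30 with a measured probe 21 rose and 1 fell, with a median of 0.80 for LU against HFD (0.39 without background correction), -0.10 for HFD against ND and 0.68 for LU against ND. Rsph1, a radial spoke head protein, gave 10.03, 10.09 and 9.88 on LU arrays, 9.38, 8.50 and 8.87 on HFD arrays and 9.51, 8.78 and 8.92 on ND arrays (1.08 ± 0.23, adjusted p = 0.0076). Tekt1, a microtubule tektin, rose by 0.75 ± 0.11 and Dnali1, a dynein light intermediate chain, by 1.12 ± 0.27, while Tppp3, a tubulin binder, fell by 0.61 ± 0.09. Foxj1, the transcription factor that switches on motile ciliogenesis, did not pass (0.09 ± 0.13, adjusted p = 0.63), and 6 genes of the list had probes that were not detected on any array, Dnah5, Dnah9 and Mcidas among them. The summed signal of the 30 genes was 10062 to 10985 on LU arrays, 6227 to 7739 on HFD arrays and 5894 to 8431 on ND arrays, highest in HFD 1 and ND 1 within their groups. Rsph1, Tekt1, Tppp3 and Foxj1 were picked for mention after their values were seen, and the count of 21 was 11 with the stricter detection filter. Of 13 epididymis and testis markers 1 was measured, Prm1, with 7.51, 8.39 and 7.91 on LU arrays and 10.23, 8.38 and 8.35 on HFD arrays. For 5 of the 13 no named probe was available, and 3, Lcn9, Rnase10 and Tnp2, were not detected on any fat array. Lcn8, Crisp4, Adam7 and Odf1 were detected on some fat arrays, but not on all 3 of any diet. The part of ducts or other ciliated tissue in these values was not tested.

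The other large rises came from genes of varied function. Acsm3, a medium-chain acyl-CoA synthetase, gave 8.99, 9.08 and 8.67 on LU arrays, 7.56, 7.33 and 7.81 on HFD arrays and 11.08, 11.94 and 10.82 on ND arrays. The LU arrays lay 2.54-fold above HFD (1.34 ± 0.26, adjusted p = 0.0047) and still 2.37 below ND on the log2 scale, and the other probes gave 1.28 and 0.42. Accsl was not detected on any HFD array and was at least 1.72-fold higher (adjusted p = 0.0031), and Fbxw15 was likewise at least 1.67-fold higher (adjusted p = 0.0012). Rbfox3, an RNA-binding splicing factor known as NeuN in neurons and detected on 2 of 3 HFD arrays, was at least 2.84-fold higher (fitted 1.51 ± 0.15). Among the others, each detected on all LU and HFD arrays, the kinase gene Wnk2 rose by 1.33 ± 0.18 and Prr29 by 1.29 ± 0.24. Among the largest decreases not yet given, Cck, which encodes cholecystokinin, was not detected on any LU or ND array and was at least 1.89-fold lower in LU than in HFD fat (adjusted p = 0.0022). In Npy, neuropeptide Y, LU and HFD arrays did not overlap, yet the call was lost without any LU array and with the 6 LU and HFD arrays alone. It gave 6.48, 5.94 and 6.59 on LU arrays, 2 of them above detection, and 9.57, 7.43 and 7.15 on HFD arrays, where HFD 1 stood far above the others, and was at least 3.19-fold lower (fitted -1.71 ± 0.52, adjusted p = 0.032).

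**Figure D5:**
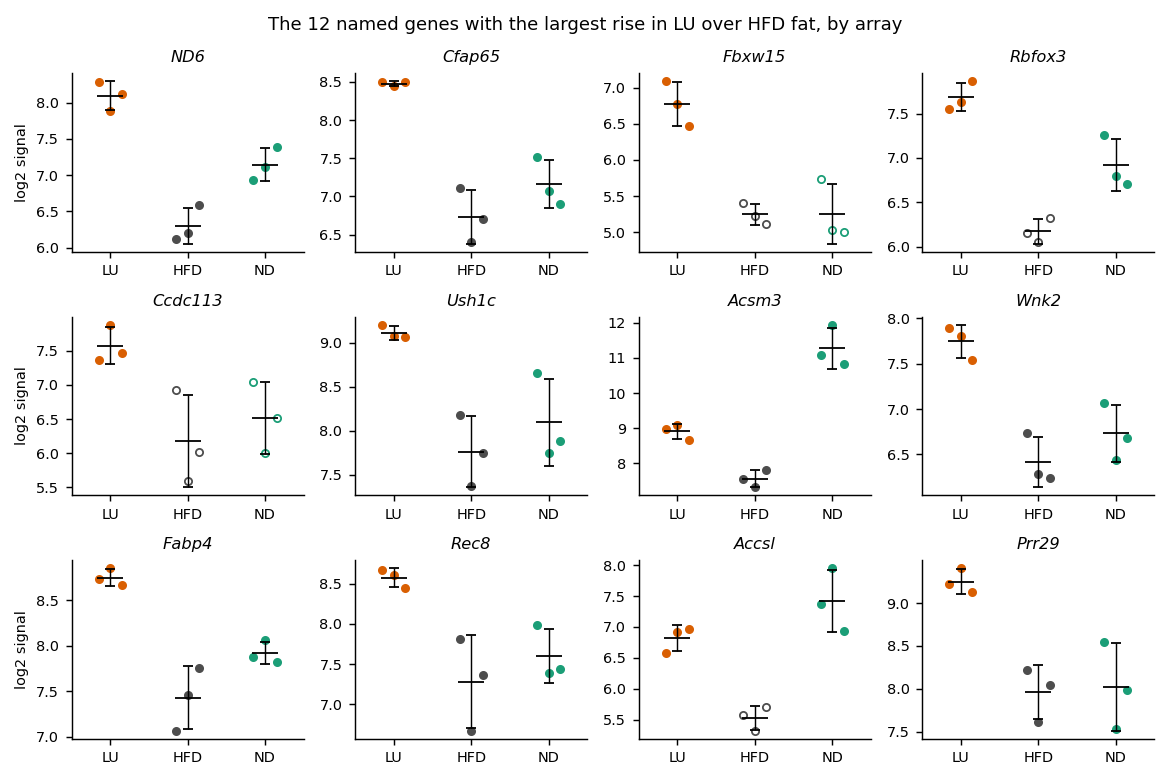
Log2 signal (vertical) of the 12 named genes with the largest rise in LU over HFD fat on each array, with LU left of HFD and ND, and the mean with its SD over 3 arrays per group. Open points belong to groups in which the gene was not detected on all 3 arrays, the vertical scales differ between panels, and ND6 runs from 7.88 to 8.28 on LU arrays and from 6.12 to 6.58 on HFD arrays.

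The luteolin difference in fat was set against that in liver by an interaction term over all 18 arrays, for 8307 genes measured in both tissues. It passed for 1388 genes (16.7%), with 654 differences larger in fat (7.87%) and 734 smaller (8.84%), where smaller means lower on the signed scale. Without HFD fat 1 and LU fat 2 the totals were 925 and 923, and the larger differences numbered 422, 432, 432, 407 and 430 without HFD fat 1, HFD fat 2, LU fat 1, LU fat 2 and LU liver 1. Of 19 macrophage markers in both tissues 16 had a smaller difference in fat, with medians of -0.79 in fat and 0.00 in liver. Of 20 cytokine genes 11 had a smaller difference in fat, with medians of -0.49 in fat and 0.23 in liver, and of 13 lipid-associated macrophage markers 9 did, with -0.60 in fat and 0.34 in liver. Of 9 resident macrophage markers 3 were smaller and 2 larger in fat, with medians of -0.43 in fat and -0.51 in liver. Of 9 adipocyte identity genes 4 had a larger difference in fat (medians 0.32 in fat and -0.02 in liver), and of 15 genes of branched-chain amino acid breakdown 6 did (0.30 in fat and 0.03 in liver). Of the mast cell genes only 4 were measured in both tissues, and the chymases, Cpa3 and the tryptases were not among them.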

How the data were processed

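Total RNA (550 ng) from fat was hybridised to 1-colour Illumina mouse bead arrays. The deposited scanner tables hold probe intensities that the authors exported without normalisation, with a detection p-value for each probe from the scanner software, per the file headers. The authors' deposited log2 values, which follow log2 intensity (lowest correlation 0.9999) with column medians of 9 to 9.01, served as an alternative, and their centring and filter are not stated. GenomeStudio 2009.2 and R 2.4.1 are listed, without roles, per the submitters' processing notes.

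Intensities were background-corrected with normexp, quantile-normalised over the 9 fat arrays and taken to log2 with an offset of 16 (limma 3.58.1, R 4.3.3). Of 45281 probes 19549 had a detection p-value under 0.05 throughout the 3 arrays of some diet, 15274 of them with 1 gene name, and the probe with the highest mean stood for each of 10240 genes. Of all probes 22883 had 1 gene name in the platform annotation, 13 had several, and the rest are unnamed here. LU, HFD and ND were fitted together with limma, with Benjamini-Hochberg adjustment over all genes. The interaction with liver used all 18 arrays normalised together.

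The 46 gene lists and the comparison were chosen with earlier results of these data known, and the motile cilium list was added after the largest rises were seen. Named genes are the 12 largest rises and 12 largest decreases among called genes whose arrays do not overlap and that were detected on every array of the higher group (clone names skipped), up to 4 members per list with the largest difference, and a fixed panel. Hdc, Hpgds, Kit, Gata2, Tpsab1, Rsph1, Tekt1, Tppp3, Foxj1 and Prm1 were added after their values were seen. Of 836 distinct list genes 601 were measured. Only 3 arrays per group limit the precision, and slide and scan were not given in the sources used here, so their part could not be tested. Same-numbered arrays of different diets did not deviate together (correlations of deviations from -0.081 to 0.098), so the numbers were not taken as pairs.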

Additional observations from a re-analysis of the deposited data

Results flagged for a closer look

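Of the 24 genes with the largest named changes in fat 6 were measured in both tissues, and for 5 of these the luteolin difference was not the same in fat and liver by the interaction term of limma over all 18 arrays. The sixth, Rec8, did not pass (difference 0.38 ± 0.40, adjusted p = 0.57), and the other 18 were not tested in liver. Among all 8307 genes measured in both tissues 16.7% passed. The 24 genes were picked for large differences on the same fat arrays, which favours a larger difference in fat, so the 5 are a description only. The lower signal of Vsig4, a macrophage complement receptor, was -1.91 ± 0.15 in fat and -0.33 ± 0.15 in liver, a difference of -1.58 ± 0.22 (adjusted p = 0.00064). Lyve1 was at -1.73 ± 0.20 in fat and -0.78 ± 0.20 in liver, a difference of -0.94 ± 0.28 (adjusted p = 0.031). Among the rises, Acsm3 was at 1.35 ± 0.22 in fat and 0.11 ± 0.22 in liver, a difference of 1.24 ± 0.31 (adjusted p = 0.014). ND6 was at 1.63 ± 0.14 in fat and 0.71 ± 0.14 in liver, a difference of 0.92 ± 0.20 (adjusted p = 0.0059). Rbfox3 was at 1.34 ± 0.14 in fat and 0.43 ± 0.14 in liver, a difference of 0.91 ± 0.20 (adjusted p = 0.0081). These values come from arrays of both tissues normalised together and so differ slightly from those of the fat arrays alone.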

How the results depend on the processing

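Of the 24 genes with the largest named changes, 22 kept their call under each of the 17 to 19 alternatives in which a gene was tested (Ccdc113 and Npy did not), as did 127 of 159 named genes past the threshold, and 0 reversed direction. Only 8 of the 24 were tested under all 19. Without background correction the ratio to the reported difference ran from 0.343 to 0.779 over the 24. With all detected probes in place of 1 probe per gene, more features were tested and the counts were 5324 for LU against HFD (2700 higher and 2624 lower), 7324 for HFD against ND (3314 and 4010) and 5669 for LU against ND (2772 and 2897). With 1 array left out, LU against HFD ranged from 2127 to 3824 genes (1007 to 2015 higher), LU against ND from 2239 to 3522 (1006 to 1589 lower), and fat minus liver from 923 to 1259 (407 to 582 higher). Where an array of the contrast itself was left out, fewer samples entered the fit. Cyclic loess gave 1389 higher and 1742 lower genes in LU against HFD and median scaling gave 1772 and 1280. With replicate number as a block 2944 genes passed (1481 higher and 1463 lower), and the numbers do not pair the arrays. The block changed the call of Cidec, Plin1 and Apoc3 among the genes named above. It left 4 higher genes in the triglyceride list, 2 in the brown and beige list and 4 in the Nrf2 list. Without the block these numbered 7, 4 and 8. Probes not detected in one group (Mcpt4, Cck, Tpsab1, C5ar1, Fbxw15, Accsl) or detected on part of its arrays (Cpa3, Cma1, Tpsb2, Fcer1a, Cd209a, Mmp3, Npy, Rbfox3, Ccdc113) carry only bounds on a fold, which hold on the background-corrected scale. Probes near the top of the scale (Lep, Adipoq, Lpl, Scd1) could hide rises.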

Other observations

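Dendritic cell markers were divided, with 2 of 7 higher and 2 lower in LU than in HFD fat, where 16.3% and 15.5% of all genes were. Siglech, a receptor of plasmacytoid dendritic cells, and Itgae, an integrin of cross-presenting dendritic cells, rose by 0.94 and 0.52 on the log2 scale. Cd209a, a lectin of monocyte-derived dendritic cells detected on 1 of 3 LU arrays, was at least 1.99-fold lower, Irf8, a transcription factor of the lineage, fell by 0.39 on the log2 scale, and the falls numbered 1 without LU 1, LU 2, LU 3, HFD 1, HFD 2 or ND 2. Neutrophil markers were 0 of 5 higher and 0 lower (1 lower without ND 2), and smooth muscle and pericyte markers 0 of 8 in either direction (1 higher without LU 2 and 1 lower without HFD 3). Erythrocyte markers had 1 of 4 lower, Hba-a1 at -0.93, and 2 lower without HFD 1, ND 2 or ND 3.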
